A study of Trichoderma reesei with 9 samples.

Results

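A set of 5 genes that lie next to each other on 1 scaffold of the Trichoderma reesei genome, a cluster named for N-acetylglucosamine, was followed across 9 mycelial RNA-seq libraries. They are TRIREDRAFT_79669, a glycoside hydrolase family 3 (GH3) gene, TRIREDRAFT_79671, a carbohydrate esterase family 9 (CE9) gene, TRIREDRAFT_79673, described as a predicted protein and listed with an NDT80_PhoG DNA-binding domain, TRIREDRAFT_49898, a predicted protein with no listed domain, and TRIREDRAFT_79677, a hexokinase gene. They were chosen by name, as 5 of the 10348 listed genes, with their levels in these libraries already known, so every value given for them is a description and carries no test. The strains were Rut-C30 with vps13 deleted (Δvps13), Rut-C30 with vps21 deleted (Δvps21), and Rut-C30 without either deletion, which the labels call the wild type although it is itself a cellulase-overproducing mutant. Each strain had 3 libraries from mycelia sampled after 96 h on Avicel, a microcrystalline cellulose that induces cellulases. The labels do not say whether the libraries of a strain came from separate cultures, or whether a deletion strain was 1 transformant, so each p below measures only the spread between these libraries, which may be technical.

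N-acetylglucosamine (GlcNAc) is the sugar unit of chitin, a polymer of the fungal cell wall. Fungi that feed on it split chitin chains with hydrolases, take up GlcNAc, phosphorylate it with a hexokinase-type kinase, remove the acetyl group with a CE9-family deacetylase, and remove the amino group to give a sugar phosphate of glycolysis. In T. reesei the genes of this route are known to be grouped in a cluster that holds a gene for an Ndt80-like transcription factor. The deposited descriptions of the 5 genes do not mention GlcNAc, so the name of the cluster rests on the CE9, GH3 and hexokinase descriptions and on the NDT80_PhoG domain. Vps13 is known from yeast as a lipid transfer protein at membrane contacts, and Vps21 from yeast as a Rab5-type GTPase of endosomes.

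In the deposited coordinates the cluster spans 21228 bases of scaffold NW_006711161.1, and 0 other listed genes lie between its members. The GH3 gene occupies 708757 to 712529 on the minus strand. The CE9 gene follows at 714385 to 716448 and the NDT80_PhoG gene at 718618 to 720808, both on the plus strand. TRIREDRAFT_49898 lies at 721359 to 723042 on the minus strand, and its first listed base is separated by 550 bases from the last one of the NDT80_PhoG gene. The hexokinase gene is at 728079 to 729984 on the plus strand, after the widest gap of the cluster, 5036 bases. A RefSeq table of the QM6a v2.0 assembly gives the same coordinates for all 5 genes. The GH3 gene ends 22 bases from the end of its outer neighbour TRIREDRAFT_49888, which runs on the opposite strand, and the protocol names no strand-marking step, so reads past either end could not be assigned by strand.

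The hexokinase gene TRIREDRAFT_79677 was low in Δvps13 and high in Δvps21. In TMM CPM, that is counts per 1000000 counts of the library after edgeR's TMM scaling, it had 71.0, 108 and 68.2 in Δvps13, 1294, 1253 and 1427 in Δvps21, and 296, 294 and 289 in the wild type. The 3 strains did not overlap, and the wild type libraries were nearly equal. The gene was 3.55-fold lower in Δvps13 than in the wild type (log2 ratio −1.83, SE 0.24) and 4.52-fold higher in Δvps21 than in the wild type (log2 ratio 2.18, SE 0.25).

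The CE9 gene TRIREDRAFT_79671, whose family removes the acetyl group of phosphorylated GlcNAc, had the same order of strains. Its levels were 75.9, 304.5 and 81.3 TMM CPM in Δvps13, 2368, 2486 and 3037 in Δvps21, and 596, 680 and 725 in the wild type. All Δvps13 libraries were below all wild type libraries, but Δvps13 replicate 2 stood well above the other Δvps13 libraries. The log2 ratio of Δvps13 over the wild type was −2.12 (SE 0.48, 4.33-fold lower), and −3.08 (8.47-fold lower) without Δvps13 replicate 2. The log2 ratio of Δvps21 over the wild type was 1.98 (SE 0.48, 3.94-fold higher). That SE rests on a spread shared by the 3 strains, so it also carries the spread of Δvps13. On the log2 scale the SD of this gene was 1.13 in Δvps13, 0.19 in Δvps21 and 0.14 in the wild type.

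The undescribed gene TRIREDRAFT_49898 had the widest range of the 5. It had 73.0, 171 and 28.7 TMM CPM in Δvps13, 2711, 2330 and 3184 in Δvps21, and 533, 500.2 and 625 in the wild type. The strains did not overlap, and Δvps13 replicate 3 was the lowest library. The log2 ratio of Δvps13 over the wild type was −2.61 (SE 0.52, 6.08-fold lower), and −3.44 (10.8-fold lower) without Δvps13 replicate 2. The log2 ratio of Δvps21 over the wild type was 2.31 (SE 0.51, 4.96-fold higher). Here too the SE carries the spread of Δvps13, while the log2 SDs were 0.23 in Δvps21 and 0.17 in the wild type.

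The GH3 gene TRIREDRAFT_79669, of a family that holds both beta-glucosidases and N-acetylglucosaminidases, differed less between strains. Its levels were 128, 116 and 77.0 TMM CPM in Δvps13, 294, 232 and 281.5 in Δvps21, and 144, 141.5 and 144 in the wild type. Δvps13 lay just below the wild type without overlap, at a log2 ratio of −0.42 (SE 0.22). Δvps21 lay above it, at a log2 ratio of 0.91 (SE 0.22, 1.88-fold higher).

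The NDT80_PhoG gene TRIREDRAFT_79673 was the one member for which Δvps13 and the wild type overlapped. It had 142, 133 and 88.3 TMM CPM in Δvps13, 241, 204 and 253 in Δvps21, and 109.8, 103 and 106 in the wild type. Its log2 ratio of Δvps13 over the wild type was 0.19 (SE 0.21), a direction that flips to −0.05 when libraries are scaled by their totals only. Δvps21 was 2.19-fold higher than the wild type (log2 ratio 1.13, SE 0.22) and did not overlap with it.

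**Figure D1:**
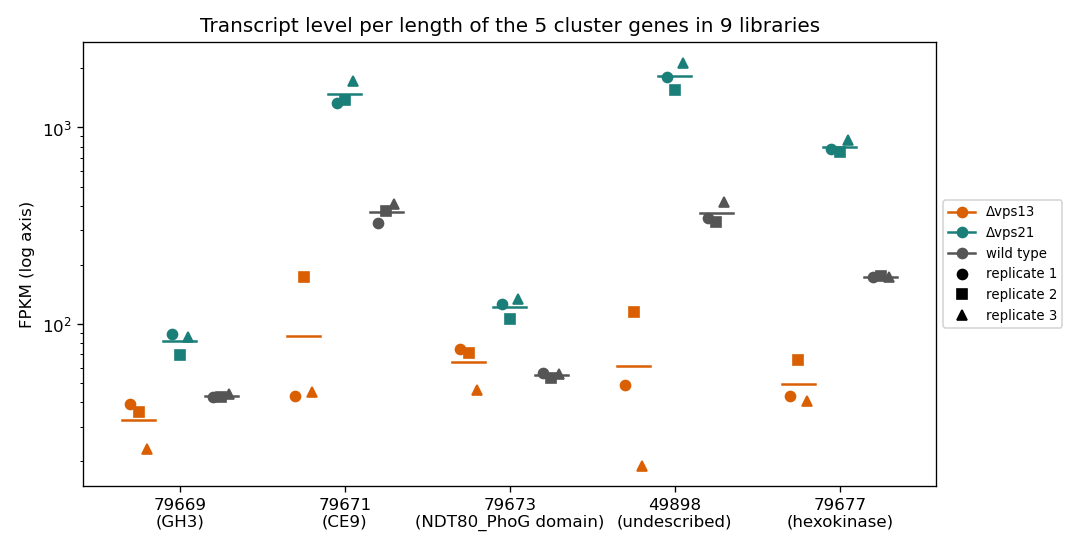
Level per length (FPKM, log axis) of the 5 cluster genes in each library, with Δvps13 left of Δvps21 and the wild type on the right, point shapes marking replicates and bars marking means of 3 libraries. Δvps21 lies above the other strains for every gene, and Δvps13 lies below the wild type for all but TRIREDRAFT_79673.

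Per gene length, as deposited FPKM, a read level divided by gene length, the CE9 gene, TRIREDRAFT_49898 and the hexokinase gene were more abundant than the GH3 and NDT80_PhoG genes in Δvps21 and the wild type, but in Δvps13 the NDT80_PhoG gene averaged more than TRIREDRAFT_49898 and the hexokinase gene. TRIREDRAFT_49898 averaged 61.0 FPKM in Δvps13, 1831 in Δvps21 and 365 in the wild type, and ranked 63 of 10348 listed genes in Δvps21. The CE9 gene averaged 86.9 FPKM in Δvps13, 1476 in Δvps21 and 370.4 in the wild type, and ranked 78 in Δvps21. These levels put both genes among the most abundant transcripts of Δvps21, whereas they ranked 1648 and 1253 in Δvps13. The hexokinase gene averaged 49.7 FPKM in Δvps13, 795 in Δvps21 and 174 in the wild type. The NDT80_PhoG gene averaged 63.8 FPKM in Δvps13, 122 in Δvps21 and 55.1 in the wild type. The GH3 gene was the least abundant member in every strain, with 32.6 FPKM in Δvps13, 81.6 in Δvps21 and 43.0 in the wild type.

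Set directly against each other, Δvps21 and Δvps13 differed most for TRIREDRAFT_49898, the CE9 gene and the hexokinase gene. Over Δvps13, Δvps21 was 30.2-fold higher for TRIREDRAFT_49898 (log2 ratio 4.92, SE 0.57), 17.1-fold higher for the CE9 gene (4.10, SE 0.53) and 16.1-fold higher for the hexokinase gene (4.01, SE 0.27). The log2 ratio was 1.33 (SE 0.23) for the GH3 gene and 0.94 (SE 0.22) for the NDT80_PhoG gene. Without Δvps13 replicate 2 these ratios were 5.75 for TRIREDRAFT_49898 and 5.06 for the CE9 gene. The comparisons of the deletions with the wild type share the wild type libraries.

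**Figure D2:**
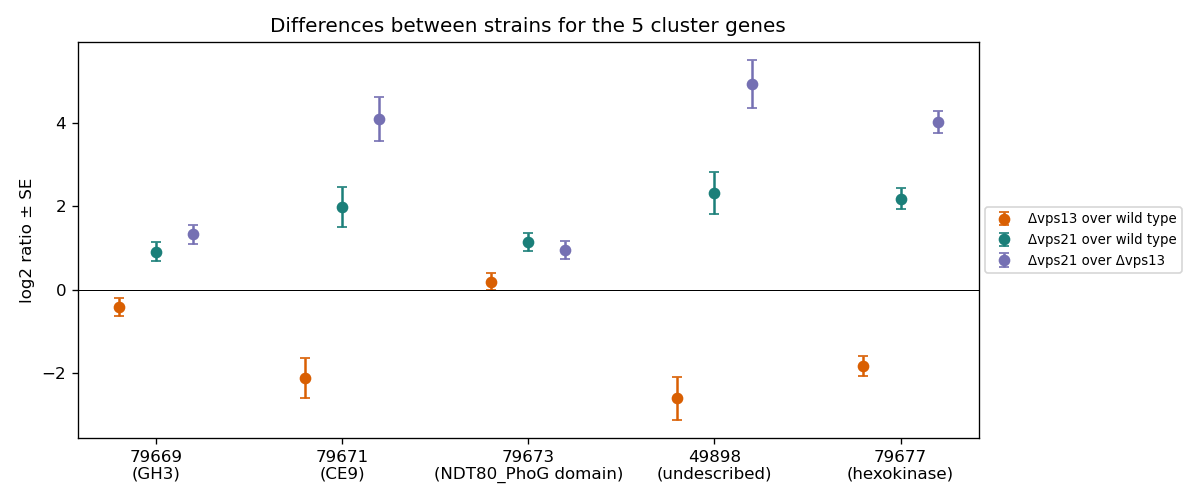
Log2 ratio ± SE of each cluster gene (3 libraries per strain, edgeR fit) for Δvps13 over the wild type, Δvps21 over the wild type and Δvps21 over Δvps13. TRIREDRAFT_79671, TRIREDRAFT_49898 and TRIREDRAFT_79677 lie near −2 and 2 against the wild type, and TRIREDRAFT_79669 and TRIREDRAFT_79673 lie closer to 0.

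All 5 members had enough reads to be tested, among 8906 genes. In Δvps13 over the wild type, 3 of 5 passed the threshold used for other genes (adjusted p below 0.05), all lower, where 10.4% of all tested genes passed and 4.75% passed as lower. In Δvps21 over the wild type, 5 of 5 passed, all higher, where 32.5% of all tested genes passed and 16.7% passed as higher. In Δvps21 over Δvps13 5 of 5 passed, all higher, where 15.2% passed and 7.68% passed as higher. Nothing is read from these counts, since the members were chosen with these contrasts known. The Δvps13 count also turned on single libraries: it was 2 without wild type replicate 1 and 1, the hexokinase gene, without wild type replicate 2 or 3. The groups did not overlap for 4 of 5 members in Δvps13 and the wild type, all lower, and 16.0% of all tested genes were lower without overlap. They did not overlap for 5 of 5 in Δvps21 and the wild type, against 30.2% of all tested genes higher without overlap, nor for 5 of 5 in Δvps21 and Δvps13, against 16.2%. The median log2 ratio of the members was −1.83 in Δvps13 over the wild type, 1.98 in Δvps21 over the wild type and 4.01 in Δvps21 over Δvps13, beside medians of 0.04, −0.02 and −0.05 over all tested genes.

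Across the genome, 503 genes rose and 423 fell in Δvps13 against the wild type, 1489 rose and 1408 fell in Δvps21 against the wild type, and 684 were higher and 672 lower in Δvps21 than in Δvps13. Scaled by library totals only, these splits were 173 and 1089, 872 and 1678, and 691 and 395, and the median of all genes shifted by −0.30, −0.18 and 0.12 on the log2 scale. Totals ran from 12127372 to 13493219 counts per library and scaling factors from 0.699 to 1.21, the lowest in Δvps13 replicate 3. That library correlated better with the wild type libraries (mean r 0.945 over genes) than with the other Δvps13 libraries (0.914). The median SD of a gene within a strain was 0.50 in Δvps13, 0.23 in Δvps21 and 0.19 in the wild type (log2 scale, n = 3). TRIREDRAFT_123015, listed as a Rab5-like gene, had 2, 2 and 2 counts in Δvps21, against 1740, 1295 and 1147 in Δvps13 and 1607, 1365 and 1529 in the wild type, while vps13 was not matched by name and was not analysed here. Genes described as hydrophobins, which coat conidia, summed to 4244, 10820 and 1961 TMM CPM in Δvps13, 8969, 13340 and 10520 in Δvps21, and 4400, 3571 and 3658 in the wild type, with hfb1 near 0 throughout. In each comparison 1 of 3 tested was called, as higher (33.3%). Of all tested genes 10.4% were called in Δvps13 and 32.5% in Δvps21 over the wild type, and 15.2% between the deletions. The called gene, looked up after its values were seen, had 1216, 2611 and 37 counts in Δvps13, against 111, 92 and 104 in the wild type. These strains overlapped for it. The hydrophobin genes were on average highest in Δvps21 and, within Δvps13, highest in replicate 2, as were the CE9 gene, TRIREDRAFT_49898 and the hexokinase gene. The GH3 and NDT80_PhoG genes were highest in replicate 1 of Δvps13. In Δvps13 over the wild type the median log2 ratio was 0.54 for the 3 tested hydrophobin genes and −1.83 for the cluster members. The part of hydrophobin genes in the differences of the cluster was not tested.

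Added together, the 5 genes took 490.2, 833 and 343.5 TMM CPM in Δvps13, 6907, 6505 and 8183 in Δvps21, and 1679, 1719 and 1889 in the wild type. The make-up of that sum differed between strains. The CE9 gene, TRIREDRAFT_49898 and the hexokinase gene together held 0.81, 2.34 and 1.08 times the TMM CPM of the GH3 and NDT80_PhoG genes in Δvps13, 11.9, 13.9 and 14.3 times in Δvps21, and 5.62, 6.04 and 6.55 times in the wild type. The strains did not overlap in this ratio, which does not depend on the scaling of libraries. The ratio of the CE9 gene to TRIREDRAFT_49898 was 1.04, 1.78 and 2.84 in Δvps13, 0.874, 1.07 and 0.954 in Δvps21, and 1.12, 1.36 and 1.16 in the wild type. Every Δvps21 library was below every wild type library in this ratio, and the Δvps13 libraries spread most widely.

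Within strains the members also differed in their spread. On the log2 scale the CE9 gene and TRIREDRAFT_49898 had SDs of 1.13 and 1.28 in Δvps13, above the median gene of that strain (0.50). The GH3, NDT80_PhoG and hexokinase genes lay below that median, at 0.39, 0.37 and 0.37. Over the 9 libraries, Pearson's r of log2 TMM CPM between 2 members ran from 0.708 to 0.986 in the 10 pairs, values that mostly carry the strain differences. With each strain's mean subtracted, which leaves mainly the spread of the 3 Δvps13 libraries, the GH3 and NDT80_PhoG genes had r = 0.98 and the CE9 and hexokinase genes r = 0.971, and the GH3 and CE9 genes had r = 0.271, the lowest of the 10 pairs. TRIREDRAFT_49898 had r = 0.747 with the GH3 gene, 0.793 with the NDT80_PhoG gene, 0.822 with the CE9 gene and 0.878 with the hexokinase gene. These values are descriptions over libraries that share strain and depth.

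The genes on either side of the cluster, chosen by position alone, mostly did not pass the test. Of 20 flanking genes, 10 on each side, 16 had enough reads. In Δvps13 against the wild type, 1 fell and 0 rose (6.25% of 16, against 10.4% of all tested genes): an unnamed gene model at 751714 to 753186, with 4.18 TMM CPM in Δvps13, below its level in the wild type (log2 ratio −1.41, SE 0.30, adjusted p = 0.0157, edgeR quasi-likelihood test with Benjamini-Hochberg adjustment). It was not called without any one of the 3 wild type libraries or without Δvps13 replicate 2 (adjusted p 0.0517 to 0.077), nor with these strains fitted alone (0.056). The count for Δvps13 was 0 without any one wild type library, 2 without Δvps13 replicate 1 and 4 without Δvps13 replicate 3. Without overlap between these strains, 0 of the 16 were higher and 3 lower in Δvps13, against 1249 and 1423 of 8906 tested genes.

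In Δvps21 against the wild type, 1 flanking gene rose and 1 fell (12.5%, against 32.5%). TRIREDRAFT_64656, a predicted protein, rose to 9.97 TMM CPM in Δvps21, against 1.75 in the wild type (log2 ratio 2.50, SE 0.35, adjusted p = 5.13e-04), and is among the flanking genes farthest from the cluster. TRIREDRAFT_79661, listed with an Epimerase domain, fell to 15.6 TMM CPM in Δvps21, against 50.4 in the wild type (log2 ratio −1.70, SE 0.49, adjusted p = 0.0227). Its call was lost without wild type replicate 2 or 3 or without any one Δvps21 library (adjusted p 0.0625 to 0.0775). The count for Δvps21 was 1 without wild type replicate 2 or 3 or Δvps21 replicate 1 or 3, 4 without Δvps13 replicate 2, and 5 without Δvps13 replicate 1 or 3. Many more flanking genes differed without overlap than were called. Of 16, 5 were higher and 6 lower without overlap in Δvps21, against 2687 and 2811 of 8906 tested genes.

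Between the deletions, 2 flanking genes were higher in Δvps21 than in Δvps13 and 0 were lower (12.5%, against 15.2%). They were TRIREDRAFT_64656 (log2 ratio 1.96, SE 0.34, adjusted p = 0.0041) and the ceramidase family gene TRIREDRAFT_64397, a sphingolipid-cleaving enzyme by its description (log2 ratio 0.75, SE 0.18, adjusted p = 0.0166), whose call was lost without any one Δvps21 library (adjusted p 0.0511 to 0.0724) or with the deletions fitted alone (0.0771). That count was 1 without any one Δvps21 library and 5 without Δvps13 replicate 1 or 3. Without overlap, 4 of 16 were higher and 0 lower, against 1439 and 1321 of 8906 tested genes. Over the wild type, TRIREDRAFT_64397 had log2 ratios of −0.47 (SE 0.18, adjusted p = 0.108) in Δvps13 and 0.28 (SE 0.18, adjusted p = 0.243) in Δvps21. The first was called by DESeq2 (adjusted p = 0.0288) and with scaling by totals only (0.0352). The 3 strains did not overlap for this gene, in the same order as for the member hexokinase gene. The nearest neighbours, named here after their values were seen, were not called by edgeR with all libraries. TRIREDRAFT_49888, whose end is 22 bases from the GH3 gene, had log2 ratios of −0.19 (SE 0.26) in Δvps13 and 0.53 (SE 0.25, adjusted p = 0.128) in Δvps21 over the wild type, and TRIREDRAFT_64437, which begins 940 bases past the hexokinase gene, had −0.17 (SE 0.28) in Δvps13 and 0.25 (SE 0.28) in Δvps21. In Δvps21 over Δvps13 TRIREDRAFT_49888 had a log2 ratio of 0.72 (SE 0.26, adjusted p = 0.0797), which was called by DESeq2 (adjusted p = 0.0317) and without Δvps13 replicate 3 (0.0232), and its Δvps21 difference from the wild type was called with these strains fitted alone (0.0283). TRIREDRAFT_64437 had 0.42 (SE 0.28, adjusted p = 0.343) in Δvps21 over Δvps13 and was called without Δvps13 replicate 1 (log2 ratio 0.76, adjusted p = 0.04997).

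**Figure D3:**
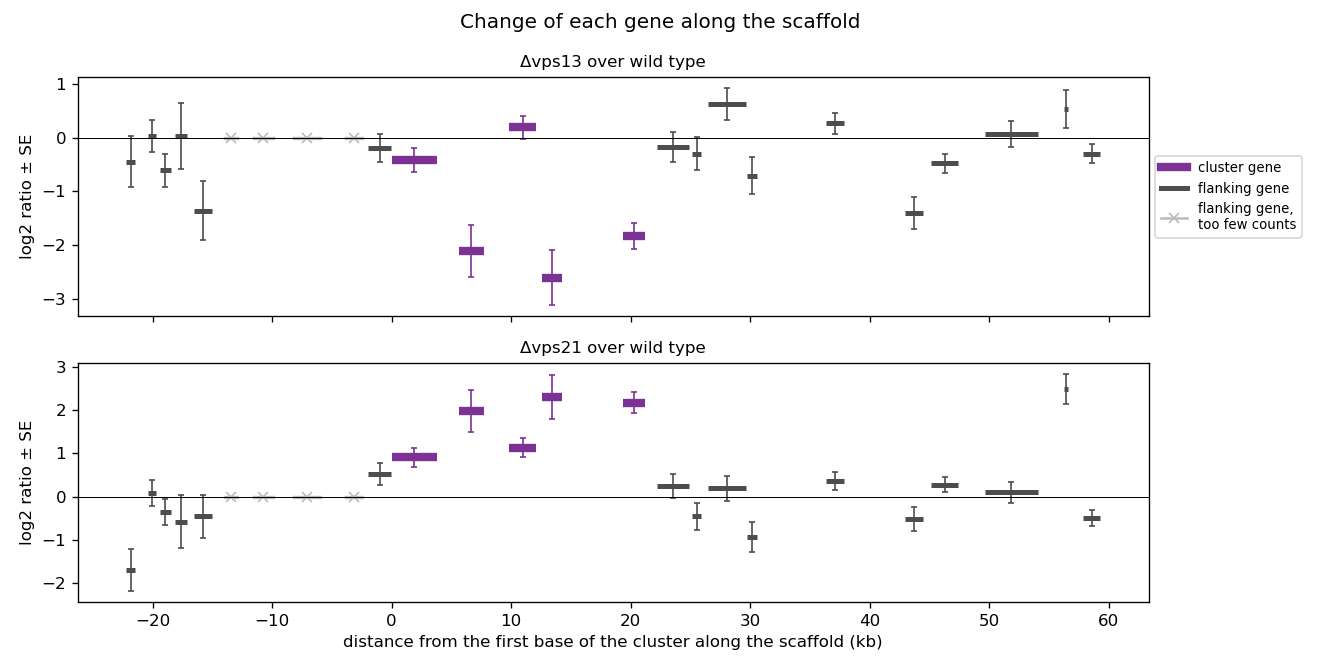
Log2 ratio ± SE (edgeR fit, 3 libraries per strain) of each gene against its distance from the first base of the cluster in kb, for Δvps13 over the wild type and Δvps21 over the wild type, with bar length showing gene length and crosses marking 4 genes with too few counts. The 5 cluster genes form a block that stands off the 0 line in Δvps21, while the nearest neighbours on both sides lie closer to 0 in that strain.

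Genes of the surrounding pathway elsewhere in the genome were taken from description patterns, without the members: chitin breakdown, chitin and GlcNAc synthesis, deacetylases, the GH3 family, sugar phosphorylation with upper glycolysis, and Ndt80-like factors. Of 54 such genes 49 were tested. In Δvps13 against the wild type 3 rose and 6 fell (18.4%, against 10.4% of all tested genes), and their median log2 ratio was −0.06. That count was 5, 3 and 5 without wild type replicate 1, 2 and 3, 5 without Δvps13 replicate 2, and 19 of 50 (6 higher, 13 lower) without Δvps13 replicate 3. Without that last library 3233 of 9036 tested genes were called in all, so the genome-wide share was also higher there. In Δvps21 against the wild type 14 rose and 10 fell (49.0%, against 32.5%), with a median of 0.26, and with scaling by totals only the split was 9 and 13. In Δvps21 over Δvps13, 12 were higher and 5 lower (34.7%, against 15.2%), or 7 and 4 without Δvps21 replicate 3.

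**Figure D4:**
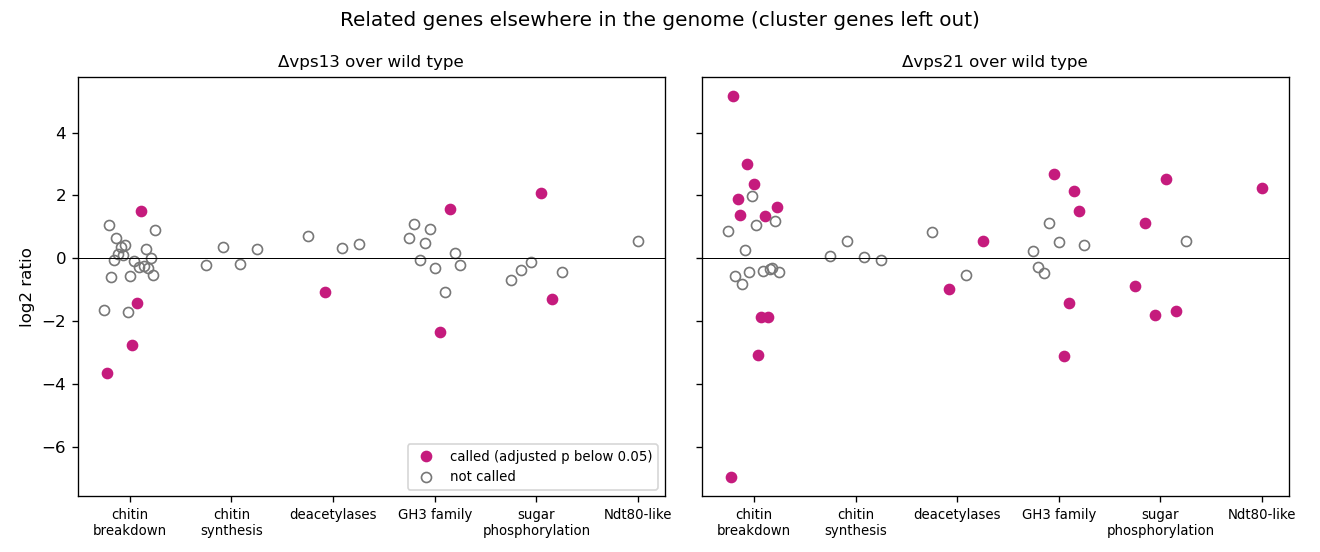
Log2 ratio over the wild type of each tested pathway gene outside the cluster in Δvps13 and in Δvps21, by list, with filled points for genes called at an adjusted p below 0.05. Called genes lie on both sides of 0 in each strain, and the 4 chitin synthesis genes are not called in either strain.

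Of the other genes for enzymes that share a description with a member, 1 is a hexokinase gene. hxk1, which encodes a glycolytic hexokinase, had 66.2 TMM CPM in Δvps13, 131 in Δvps21 and 89.6 in the wild type, and passed the threshold in neither deletion against the wild type. The 3 strains did not overlap for hxk1, in the same order as for the member hexokinase gene. Its libraries had 43.0 to 80.5 TMM CPM in Δvps13, 82.1 to 94.7 in the wild type and 123 to 139 in Δvps21. Its log2 ratios were −0.44 (SE 0.23, adjusted p = 0.236) in Δvps13 and 0.55 (SE 0.23, adjusted p = 0.0929) in Δvps21 over the wild type, and the first was called with scaling by totals only (adjusted p = 0.0219). The Δvps21 difference was called with these strains fitted alone (adjusted p = 0.0029), without Δvps13 replicate 1 (0.013) and without Δvps13 replicate 3 (0.0298). It was higher in Δvps21 than in Δvps13 (log2 ratio 0.98, SE 0.23, adjusted p = 0.0176), a call lost without any one Δvps21 library (adjusted p 0.0571 to 0.06) or with the deletions fitted alone (0.0696).

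Outside the cluster there were 2 other CE9 genes, both less abundant than the member. TRIREDRAFT_58282 fell in both deletions, to 41.8 TMM CPM in Δvps13 and 45.0 in Δvps21, against 87.5 in the wild type (log2 ratio −1.06, SE 0.21, adjusted p = 0.0124 in Δvps13, and −0.96, SE 0.21, adjusted p = 0.00595 in Δvps21). The first of these calls was lost without wild type replicate 2 (adjusted p = 0.0739). TRIREDRAFT_71326 had 36.0 TMM CPM in Δvps13, 37.8 in Δvps21 and 26.0 in the wild type, and its rise in Δvps21 (log2 ratio 0.54, SE 0.19, adjusted p = 0.0459) was lost without any one wild type or Δvps21 library (adjusted p 0.0651 to 0.178) and without Δvps13 replicate 2 (0.0549). It was also lost with scaling by totals only (log2 ratio 0.35, adjusted p = 0.308), no filter (0.051), the filter of 10 CPM (0.0615) and both limma fits (0.0676 and 0.0629). Deacetylase genes of family 4 did not pass the threshold in any of the 3 comparisons. Between the deletions 0 of 4 tested deacetylase genes were called by edgeR, with 1 at an unadjusted p under 0.05 and 1 called by DESeq2.

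The description column named 1 further Ndt80-like gene and the domain column 1 more, which was looked up after the table was seen. TRIREDRAFT_28781 had 21.7 TMM CPM in Δvps13 and rose to 70.9 in Δvps21, against 14.9 in the wild type (log2 ratio 2.25, SE 0.26, adjusted p = 1.94e-04). TRIREDRAFT_54675, named after its values were seen, had 48.5 TMM CPM in Δvps13 and rose to 187 in Δvps21, against 35.6 in the wild type (log2 ratio 2.40, SE 0.22, adjusted p = 6.86e-05). In Δvps13 0 of 2 were called by edgeR, with 0 at an unadjusted p under 0.05 and 0 called by DESeq2, but TRIREDRAFT_54675 was called without Δvps13 replicate 3 (log2 ratio 0.65, adjusted p = 0.0107).

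Chitin breakdown, the step that frees GlcNAc, had 23 tested genes of 26, among them 4 glycosyltransferase family 20 genes and 1 gene described by a chitin-binding module, which the patterns also catch. In Δvps21 against the wild type 7 rose and 4 fell (47.8%, against 32.5% of all tested genes), or 3 and 4 without wild type replicate 2, and in Δvps13 1 rose and 3 fell (17.4%, against 10.4%). The 7 include the glycosyltransferase family 20 gene TRIREDRAFT_73134, named after its values were seen (adjusted p = 0.0462). Its call was lost without any one wild type library (adjusted p 0.089 to 0.132), without Δvps13 replicate 2 (0.0514) and without Δvps21 replicate 1 or 3 (0.21 and 0.106). It was also lost with scaling by totals only (0.107) and with no filter (0.0533). The gene described by a chitin-binding module is among those that fell in each deletion. The family 18 (chitinase family) gene TRIREDRAFT_112392 rose to 23.3 TMM CPM in Δvps21, against 0.643 in the wild type (log2 ratio 5.16, SE 0.57, adjusted p = 1.8e-04), and TRIREDRAFT_58239, of the same family, rose to 89.9, against 24.3 (1.89, SE 0.28, adjusted p = 8.25e-04). The chitinase gene chi18-7 fell to 102 TMM CPM in Δvps21, against 370 in the wild type (−1.86, SE 0.28, adjusted p = 8.1e-04). The carbohydrate-binding module family 18 gene TRIREDRAFT_109235 had 14, 11 and 6 counts in Δvps13, 1, 1 and 1 in Δvps21, and 174, 140 and 162 in the wild type. From counts pooled over the libraries of each strain, it was 12.6-fold lower in Δvps13 (95% exact counting interval 8.72 to 18.7) and 139.7-fold lower in Δvps21 (47.5 to 679.9). These intervals cover counting error only and leave out the spread between libraries. In the edgeR fit it was 12.6-fold lower in Δvps13 and 124.8-fold lower in Δvps21, and fell in both by the test (adjusted p = 3.12e-04 and 4.45e-06). The Δvps13 count was 2 without any one wild type library or Δvps13 replicate 2, and 9 without Δvps13 replicate 3.

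Genes of glycoside hydrolase family 20, the N-acetylglucosaminidases that release single GlcNAc units, are given here after their values were seen. nag1 had 97.8 TMM CPM in Δvps13 and rose to 440.2 in Δvps21, against 142 in the wild type (log2 ratio 1.64, SE 0.31, adjusted p = 0.00286), and its log2 ratio in Δvps13 over the wild type was −0.53 (SE 0.31, adjusted p = 0.27). In Δvps21 over Δvps13 the log2 ratio of nag1 was 2.17 (SE 0.32, adjusted p = 0.00172). The strains did not overlap for nag1, in the same order as for the member hexokinase gene. Its highest Δvps13 library (124.0 TMM CPM) lay just below its lowest wild type library (125.7). nag2 had 1404 TMM CPM in Δvps13, 552 in Δvps21 and 751 in the wild type, and was lower in Δvps21 than in Δvps13 (log2 ratio −1.35, SE 0.32, adjusted p = 0.0184), a call lost without any one Δvps21 library (adjusted p 0.0635 to 0.0842) or with the deletions fitted alone (0.0705). Over the wild type nag2 had log2 ratios of 0.90 (SE 0.32, adjusted p = 0.0948) in Δvps13 and −0.45 (SE 0.32, adjusted p = 0.31) in Δvps21. The first was called by DESeq2 (adjusted p = 0.0285) and without Δvps13 replicate 1 (0.0061). The second was called with scaling by totals only (adjusted p = 0.0384) and with these strains fitted alone (0.0285). The low-count gene TRIREDRAFT_105931 averaged 0.25 TMM CPM in Δvps13, 1.38 in Δvps21 and 0.744 in the wild type, and was called with all libraries between the deletions (5.74-fold higher in Δvps21, log2 ratio 2.52, SE 0.60, adjusted p = 0.0175) and in neither deletion against the wild type. That call was lost without Δvps21 replicate 3 (adjusted p = 0.0799) and with the deletions fitted alone (0.0505), and the ratio was 8.89-fold without Δvps13 replicate 3. In Δvps13 against the wild type it was called as lower with scaling by totals only (adjusted p = 0.0471) and without Δvps13 replicate 3 (0.026).

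Chitin synthesis, which builds the wall polymer, had 4 tested genes, 3 of them chitin synthases. In Δvps13 0 were called, with 0 at an unadjusted p under 0.05 and 0 by DESeq2. In Δvps21 against the wild type 0 were called by edgeR, with 1 at an unadjusted p under 0.05 and 1 called by DESeq2, and 1 was called when Δvps13 replicate 1 or 3 was left out.

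The GH3 family outside the cluster had 11 tested genes of 12, of which 1 is a carbohydrate esterase family 3 gene that the pattern also catches. In Δvps21 against the wild type 3 rose and 2 fell (45.5%, against 32.5% of all tested genes), or 2 and 1 without Δvps21 replicate 1 or 3, and in Δvps13 1 rose and 1 fell (18.2%, against 10.4%). TRIREDRAFT_47268 rose to 137 TMM CPM in Δvps21, against 21.4 in the wild type (log2 ratio 2.67, SE 0.36, adjusted p = 4.47e-04). cel3a, the gene of a major extracellular beta-glucosidase, rose in Δvps13 (log2 ratio 1.58, SE 0.42, adjusted p = 0.0373) and in Δvps21 (2.15, SE 0.43, adjusted p = 0.00352), with 310 TMM CPM in Δvps13, 459 in Δvps21 and 103 in the wild type. Its Δvps13 call was lost without any one wild type library (adjusted p 0.0996 to 0.154), without Δvps13 replicate 2 (0.0513), without any one Δvps21 library (0.0531 to 0.0632), with limma on log2(FPKM + 1) or log2(FPKM + 0.1) (0.0501 and 0.0538) and with these strains fitted alone (0.0956). cel3a had 152, 221 and 558 TMM CPM in the Δvps13 libraries, and without the highest, replicate 3, its log2 ratio was 0.87 (1.82-fold, adjusted p = 0.0176). TRIREDRAFT_76227 fell to 44.6 TMM CPM in Δvps21, against 120 in the wild type (−1.43, SE 0.38, adjusted p = 0.015), a call lost without Δvps21 replicate 1 or 3 (0.0662 and 0.0603). The esterase gene TRIREDRAFT_70021 fell in both deletions, with 1.87 TMM CPM in Δvps13, 1.11 in Δvps21 and 9.69 in the wild type (adjusted p = 0.0113 and 8.62e-04), the Δvps13 call being lost without wild type replicate 2 (0.0671). The Δvps13 count of the list ranged from 0 without wild type replicate 2 to 6 without Δvps13 replicate 3.

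In sugar phosphorylation and upper glycolysis, 6 genes were tested. In Δvps21 2 rose and 3 fell against the wild type (83.3%, against 32.5% of all tested genes). In Δvps13 1 rose and 1 fell (33.3%, against 10.4%), or 0 and 1 without any one wild type library or Δvps13 replicate 2. gal1, the galactokinase gene, fell in both deletions, with 27.1 TMM CPM in Δvps13, 20.8 in Δvps21 and 66.8 in the wild type (log2 ratio −1.30, SE 0.20, adjusted p = 0.00495 in Δvps13, and −1.68, SE 0.20, adjusted p = 2.47e-04 in Δvps21). TRIREDRAFT_5776, described as a glucose phosphate isomerase and so acting on the sugar phosphate that GlcNAc breakdown feeds, fell to 120 TMM CPM in Δvps21, against 416 in the wild type (−1.79, SE 0.29, adjusted p = 0.00126). The fructose-bisphosphatase gene TRIREDRAFT_65508, which works in the direction of sugar synthesis, rose in both deletions, with 300.2 TMM CPM in Δvps13, 412 in Δvps21 and 71.7 in the wild type (log2 ratio 2.07, SE 0.47, adjusted p = 0.0208 in Δvps13, and 2.52, SE 0.48, adjusted p = 0.00275 in Δvps21). Its Δvps13 call was lost without any one wild type library or Δvps13 replicate 2 (adjusted p 0.0707 to 0.0983), with these strains fitted alone (0.0666) and with limma on log2(FPKM + 0.1) (0.0538). The ribokinase gene TRIREDRAFT_55245 rose to 34.4 TMM CPM in Δvps21, against 15.7 in the wild type (1.13, SE 0.27, adjusted p = 0.00959).

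The genes whose pattern was most like that of the cluster were ranked by Pearson's r between each gene's log2 TMM CPM and the mean of the 5 members, each centred and scaled, over the 9 libraries. Of 8901 genes 119 had r above 0.9, 33 above 0.95 and 5 above 0.98, and the median r was −0.0017. First was an unnamed gene model at NW_006711156.1:971056-971868 (r = 0.995), with 0.503 TMM CPM in Δvps13, 13.7 in Δvps21 and 1.56 in the wild type. It is a low-count gene, with 8, 10 and 1 counts in Δvps13 and 20, 22 and 25 in the wild type. TRIREDRAFT_3449, listed with a Zn_clus domain, a DNA-binding domain of fungal transcription factors, was second (r = 0.988), with 4.73 TMM CPM in Δvps13, 65.1 in Δvps21 and 11.4 in the wild type. The others were an unnamed gene model at NW_006711164.1:151081-155268 (r = 0.985) and the predicted proteins TRIREDRAFT_122795 (r = 0.981) and TRIREDRAFT_55240 (r = 0.98). All 5 lie on scaffolds other than that of the cluster. With strain means subtracted, r for them was 0.785 to 0.925. When each library was left out in turn, 2 to 4 of these 5 remained among the 5 most alike. The flanking genes had r between −0.556 and 0.916 with the cluster, the highest for TRIREDRAFT_64397.

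**Figure D5:**
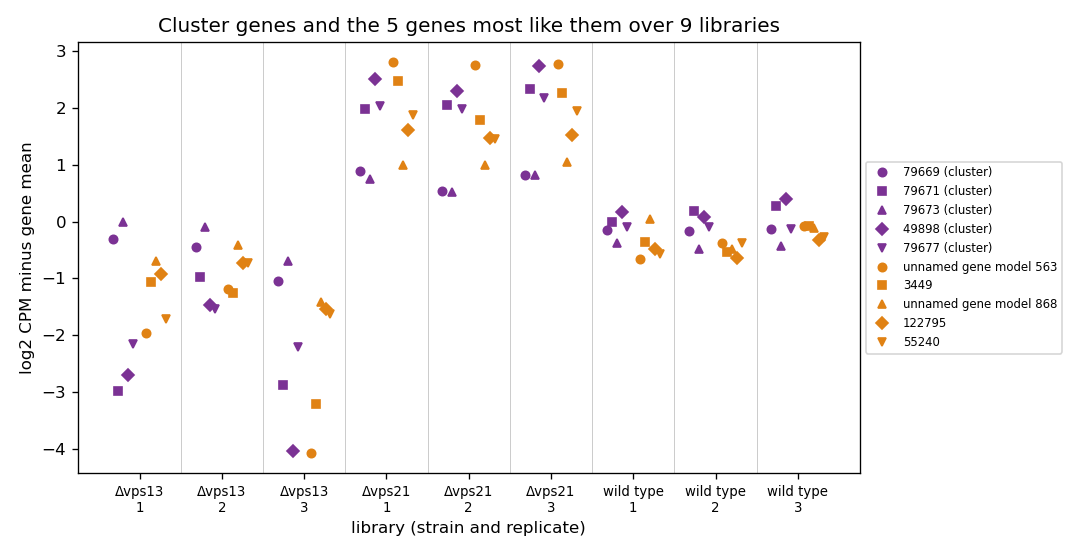
Log2 TMM CPM minus the mean of that gene over 9 libraries, for the 5 cluster genes and the 5 genes most like them, by library with Δvps13 and Δvps21 left of the wild type. All 10 genes are highest in the 3 Δvps21 libraries, and in Δvps13 TRIREDRAFT_79669 and TRIREDRAFT_79673 stay nearer to 0 than the other cluster genes.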

How the data were processed

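Poly-A RNA of 9 mycelial samples was sequenced, 3 per strain, grouped by the strain in the labels. The authors deposited whole-number counts per gene, made with HISAT2 2.0.5 and featureCounts 1.5.0-p3 per the submitters' processing notes, with build and annotation not given in the sources used. The deposited FPKM values equal the counts divided by gene length and by 1 constant per library, so they are not independent of the counts, and they were used for levels per length and for 2 alternative fits. From the deposited counts, low genes were removed with edgeR's filterByExpr (count minimum 10), and the rest, after TMM scaling, went into a quasi-likelihood fit of edgeR 4.0.16 with 1 mean per strain over 9 libraries (6 residual df and a common BCV, the relative SD between replicates, of 0.287, in R 4.3.3). Every adjusted p is Benjamini-Hochberg over all 8906 tested genes, called at 0.05. The fit was also run on data simulated with the same spread in every strain. That run cannot show how the fit behaves with the wider spread of the Δvps13 libraries. SEs are the log2 ratio divided by the square root of F, and rest on 1 spread per gene shared by the 3 strains.

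The members and gene lists were chosen with earlier results of these data known. Named genes are the 5 members, called flanking genes (10 on each side), up to 4 called genes of smallest adjusted p per list, other hexokinase genes and the 5 genes most like the members, and others are marked as named after their values were seen. Of 9120 NCBI gene IDs 9116 were found in the RefSeq table. Alternatives were DESeq2 1.42.0, median-ratio and totals-only scaling, no filter, a filter of 10 CPM in 3 libraries, limma 3.58.1 on log2(FPKM + 1) and log2(FPKM + 0.1), the compared strains alone, a replicate block and each library left out. Protein, promoter and genome sequences were not used here.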

Additional observations from a re-analysis of the deposited data

How the results depend on the processing

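With each library left out in turn, called genes numbered 165 to 3233 for Δvps13 over the wild type, 1705 to 4236 for Δvps21 over the wild type and 514 to 2216 for Δvps21 over Δvps13. Called flanking genes numbered 0 to 4, 1 to 5 and 1 to 5 in these comparisons, called pathway genes 3 to 19, 18 to 32 and 11 to 24, and called members 1 to 3, 5 throughout and 4 to 5. The median log2 ratio of the members was −2.07 to −1.69, 1.87 to 2.07 and 3.75 to 4.25, and the likeness of the top-ranked gene 0.993 to 0.997. With the compared strains fitted alone, the called genes were 298 in Δvps13, 4889 in Δvps21 and 612 between the deletions, the flanking genes 0, 7 and 1, and the pathway genes 5 in Δvps13 and 11 between the deletions. DESeq2 called 1620 genes in Δvps13, and 2, 4 and 4 flanking genes in the 3 comparisons. Scaling by totals only gave 2 flanking genes in Δvps13 and medians of the members of −2.14 in Δvps13 and 1.80 in Δvps21. The filter of 10 CPM left 1 called flanking gene between the deletions. The causes of these moves were not tested beyond the samples or genes each setting leaves out. No median of the members changed sign under the alternatives run.

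Deviations from the strain means of same-numbered libraries correlated at r −0.098 to 0.470, with not every pair above 0.1, so the numbers were not taken as pairing the libraries. With a replicate block, 807 genes were called in Δvps13, 2879 in Δvps21 and 1289 between the deletions, and the members' medians were −1.85, 1.99 and 4.03. Among the genes named, the block ended the calls of cel3a in Δvps13 (adjusted p = 0.0542) and of TRIREDRAFT_71326 (0.058) and TRIREDRAFT_73134 (0.0831) in Δvps21. It added TRIREDRAFT_76227 in Δvps13 (0.0479). Counting error is small for the members, whose lowest count in any library was 243, and the spread between Δvps13 libraries sets the precision.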
